A study of Drosophila melanogaster and Drosophila simulans with 11 samples.

Results

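In *roX* mutant salivary glands, 580 regions on the euchromatic parts of the arms 2L, 2R, 3L and 3R of the autosomes lay above the cutoff for MSL1 that the highest 5 percent of the smoothed values of this library set. They are described here with MOF and MSL2 of the same mutants and with MOF and MSL2 of wild type. The regions were found by smoothing the deposited log2 ratios of ChIP to input with the median of 500 bp windows that held at least 25 of 50 possible values, by joining windows above the cutoff over gaps up to 200 bp, and by keeping stretches of 200 bp or longer outside the 2 Mb at the centromere end of each arm. The same rule found 2017 regions in the whole library, of which 551 lay on X, 44 on chromosome 4, 495 in the centromere ends of the autosomal arms and 347 on heterochromatic and unplaced scaffolds. The members were thus chosen by their MSL1 values, and these values are given below as a description.

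The *roX* mutants were y w males with the mutant allele roX1[ex6] and the deficiency Df(1)roX2[52], both on X, and the transgene P[w+ 4Δ4.3], and wild type was Oregon R. Both were sampled as salivary glands of 3rd instar larvae grown at 25 °C, with 125 glands for each sample, and salivary gland chromosomes are polytene. The libraries were MSL1, MOF and MSL2 of *roX* mutants and MOF and MSL2 of wild type, with 1 library for each antibody and genotype, so that no spread between replicates and no p-value could be given. No wild type MSL1 library of *D. melanogaster* was analysed here. The *roX* mutant libraries share an input, and the wild type libraries share another. Read depth is unknown, and on the euchromatic arms the positions that carried a value were 40.7% of all in *roX* mutant MSL1, 68.8% in *roX* mutant MOF, 67.3% in *roX* mutant MSL2, 52.7% in wild type MOF and 74.1% in wild type MSL2.

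The MSL-complex increases transcription of the single male X-chromosome. MSL1 is its scaffold, MSL2 is the male-specific RING protein that binds DNA together with MSL1, and MOF is the acetyltransferase that acetylates histone H4 at lysine 16. The complex enters X at high affinity sites (HAS), which are rich in a GA-repeat motif, and spreads from there to active genes, and the long non-coding RNAs *roX1* and *roX2* are part of it. MOF also occurs outside this complex, at promoters of active genes on all chromosomes. Genes, repeats and motifs at the regions are not given, because no sequence or annotation of release 5, the release of the coordinates, was used here.

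Most of the 580 MSL1 regions were short and just above the cutoff, and a few were long and high. The region value, which is the mean of the top 5 consecutive smoothed log2 ratios, ranged from 0.80 to 3.49 with a median of 0.90 (quartiles 0.85 and 0.98), where the cutoff was 0.80. The length ranged from 200 to 15800 bp with a median of 370 bp (quartiles 290 and 470). Of the windows with a value on these arms, 1.02% reached the cutoff. A value under 1.0 was found in 456 regions (78.6%), a value from 1.0 to 1.5 in 99, and a value of 1.5 or more in 25. That last class held 4.31% of the regions and 41.4% of their summed length.

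The regions were also divided by length. There were 31 regions of 2 kb or longer, called long here, and they made up 5.34% of the regions and 46.3% of the 403610 bp that all of them covered. The long regions had values from 1.15 to 3.49 with a median of 1.88, against 0.80 to 1.59 with a median of 0.90 in the 549 short ones, and 23 of the 25 regions with a value of 1.5 or more were long. The longest short region had 1930 bp and the shortest long region 2120 bp, so that no gap in length separated them, and 8 of the long regions had values from 1.0 to 1.5. The median length was 5080 bp in the long and 370 bp in the short regions. The name weak therefore describes the short regions and not the long ones. With a cutoff at the highest 1.5 percent, a log2 ratio of 1.63, 18 of the 580 regions had a value above it, and all 18 were long. The limits of 2 kb and of values at 1.0 and 1.5 were set with the values already in view.

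The arms differed in the number of regions and in where the long ones lay. Arm 2L held 229 regions (39.5%), 2R held 124 (21.4%), 3L held 98 (16.9%) and 3R held 129 (22.2%). Per Mb of windows with a value, 2L had 21.9 regions, 2R had 12.7, 3L had 10.6 and 3R had 10.9. The share of windows above the cutoff had another order, and it was 1.31% for 3R, 1.08% for 2L, 0.979% for 2R and 0.621% for 3L. Arm 3R also held 16 of the 31 long regions. These 16 had a summed length of 107540 bp, and they were followed by 6 long regions with 43200 bp on 2R, 4 with 18410 bp on 3L and 5 with 17780 bp on 2L. Median values and lengths were similar on the arms, and 2L had 0.89 and 380 bp, 2R had 0.94 and 385 bp, 3L had 0.90 and 350 bp and 3R had 0.90 and 380 bp. Arm 2L thus had the most regions and 3R the largest summed length of regions. Without 3R, 15 long regions were left.

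**Figure D1:**
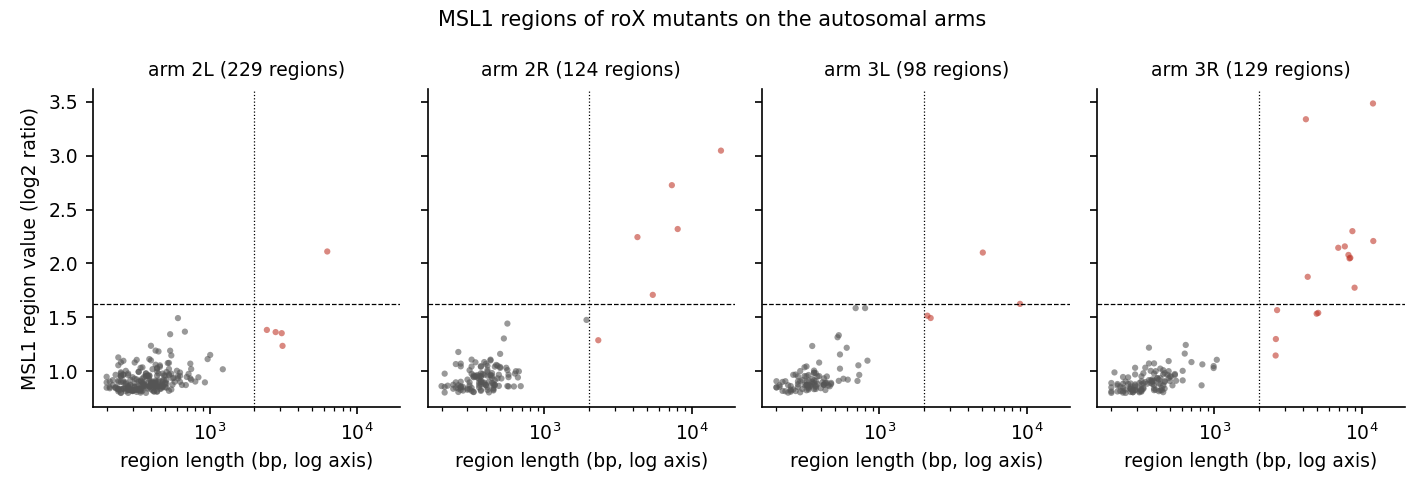
MSL1 region value (log2 ratio, vertical axis) against region length (bp, log axis) for the 580 regions of *roX* mutants, with a panel for each arm. Each point is a region, red points are 2 kb or longer (right of the dotted line), and the dashed line marks 1.63, the cutoff of the highest 1.5 percent. Of the 31 red points 16 lie on 3R, and all points above the dashed line are red.

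The highest regions are given in coordinates of release 5. On 3R, the highest value of all was found at chr3R:9790360-9802320 (11960 bp), with a region value of 3.49, and the mean log2 ratio there was 2.20 for MSL1, 0.70 for MOF and 0.10 for MSL2 in *roX* mutants, and 0.10 for MOF and 0.097 for MSL2 in wild type. The second on 3R was chr3R:9857800-9861990 (4190 bp) with a region value of 3.34, and its mean log2 ratios were 2.52 for MSL1, 0.85 for MOF and -0.064 for MSL2 in *roX* mutants, against -0.24 for MOF and -0.091 for MSL2 in wild type. The third was chr3R:7454370-7463040 (8670 bp) with a region value of 2.30 and mean log2 ratios of 1.87 for MSL1, 0.45 for MOF and 0.020 for MSL2 in *roX* mutants, against -0.070 for MOF and 0.21 for MSL2 in wild type. At these regions MOF of *roX* mutants was well above its typical level on the arms (median 0.019). MSL2 of *roX* mutants and both wild type libraries were not well above their own typical levels on the arms. Against the shifted regions described below, MSL2 of *roX* mutants was still higher at each of these regions, by 0.29, 0.14 and 0.24. MOF of *roX* mutants was higher by 0.95, 1.26 and 0.70 in the same order. The third region also overlapped a region called in MSL2 of *roX* mutants.

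On 3L, the highest region was chr3L:17517640-17522680 (5040 bp) with a region value of 2.10, and mean log2 ratios of 1.73 for MSL1, 0.20 for MOF and -0.14 for MSL2 in *roX* mutants and of -0.32 for MOF and 0.17 for MSL2 in wild type. The next on this arm, chr3L:8039960-8048980 (9020 bp), had a region value of 1.62, and MOF and MSL2 had 0.0065 and -0.29 in *roX* mutants, against -0.32 and 0.029 in wild type. The third, chr3L:15501150-15501950, had only 800 bp and a region value of 1.59, and all other libraries were low there, with -0.51 for MOF and -0.45 for MSL2 in *roX* mutants and -0.91 for MOF and -0.23 for MSL2 in wild type. It was the region with the highest value among the short ones, and MOF of *roX* mutants was not above its surroundings there.

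On 2L, only chr2L:6092490-6098790 (6300 bp) had a value above 1.5, with 2.11. Its mean log2 ratios were 1.55 for MSL1, 0.23 for MOF and -0.077 for MSL2 in *roX* mutants and -0.16 for MOF and 0.20 for MSL2 in wild type. The second was chr2L:8162580-8163190 (610 bp) with a region value of 1.49, and the other libraries were again low, with -0.81 for MOF and -0.62 for MSL2 in *roX* mutants and -0.87 for MOF and -0.12 for MSL2 in wild type. The third was chr2L:2233310-2235760 (2450 bp) with a region value of 1.38, and MOF and MSL2 had 0.26 and -0.15 in *roX* mutants and -0.34 and 0.41 in wild type. The longest region of all lay on 2R. It had 15800 bp, a region value of 3.05 and mean log2 ratios of 2.25 for MSL1, 0.52 for MOF and 0.12 for MSL2 in *roX* mutants, against -0.24 for MOF and 0.31 for MSL2 in wild type. Next in value on 2R were a region of 7330 bp with 2.73 and one of 8030 bp with 2.32.

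Around the cutoff the regions formed a continuum. The members nearest to it were chr2L:17526230-17526480 and chr3R:21448400-21448650, both of 250 bp, and the nearest stretches below it were chr2L:6342560-6342960 (400 bp) and chr2L:15552410-15552630 (220 bp), all 4 with a value of 0.80. MOF of *roX* mutants had 0.47 and 0.14 in the pair inside and -0.12 and 0.52 in the pair outside, and MSL2 had 0.30 and 0.20 inside and 0.33 and 0.31 outside. A cutoff at the highest 6 percent added 302 stretches. The number of regions followed the cutoff closely, with 75 at the highest 3 percent and 29 at the highest 1.5 percent, and it was 26 when each window had to hold 40 of its 50 values.

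The regions, most of them short, were spread unevenly over the arms. The median gap between neighbouring regions was 26405 bp, 293 of the 580 regions had a neighbour within 10 kb and 449 within 50 kb, and the longest gap had 3095630 bp. When the arms were divided into 89 stretches of 1 Mb, these held 578 of the 580 regions, 30 of them long. The others fell in none of the stretches. Of these 578, 396 (68.5%) lay in 21 stretches with 10 or more regions. The most crowded stretch had 38 regions, between 2 and 3 Mb of 2L. Of the 31 long regions, 17 lay within 50 kb of another long region and 9 within 10 kb, and 23 lay within 50 kb of a short region and 17 within 10 kb. On 3R, 3 long regions followed each other at 5346010 to 5353710, 5361720 to 5369870 and 5377130 to 5389150. No expected counts are given beside these gaps and neighbours, so that they are only a description.

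Because a single cutoff chose the regions, a stretch with a higher MSL1 level yields more of them, and the MSL1 levels of the stretches are given with this in mind. The median log2 ratio outside the regions was 0.10 for *roX* mutant MSL1 in the 21 crowded stretches, against -0.17 in the 37 stretches with 2 or fewer regions. *roX* mutant MOF had 0.091 against -0.041 and *roX* mutant MSL2 0.054 against -0.040, while wild type MOF had 0.072 against 0.097 and wild type MSL2 0.21 against 0.19. A value of MSL1 was present at a median of 51.5% of the positions in the crowded stretches, against 35.9% in those with 2 or fewer regions, and the part of this in the counts was not tested. Over the 89 stretches, Spearman's rho between the number of short regions and this level was 0.77 for MSL1, 0.46 for MOF and 0.47 for MSL2 in *roX* mutants and 0.047 for MOF and 0.26 for MSL2 in wild type. For the number of long regions, of which the stretches held 30, it was 0.071 for MSL1, -0.11 for MOF and -0.11 for MSL2 in *roX* mutants. These are descriptions, since neighbouring stretches share libraries and input. Stretches with many short regions thus had higher levels also in MOF and MSL2 of *roX* mutants, and rho was near 0 or negative for the long regions.

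To see whether MOF and MSL2 were also present at the regions, the mean log2 ratio in each region was compared with the median of the same region shifted by 10 to 50 kb to both sides, with shifted regions kept outside all members. MOF of *roX* mutants had a median of 0.40 in the regions and 0.26 in the shifted regions. The median difference was 0.18 (interquartile range 0.045 to 0.33, 558 regions), and MOF was higher than in the shifted regions in 446 regions (79.9%), where the shifted regions compared among themselves gave 50.2%. MSL2 of *roX* mutants had 0.28 in the regions and 0.11 in the shifted regions, a median difference of 0.17 (interquartile range 0.0039 to 0.31, 545 regions), and was higher in 409, where the shifted regions gave 50.6%. Both libraries share their input with the MSL1 library that chose the regions, so that a low input would raise all 3 ratios, and the part of this input in the differences was not tested. In wild type, which has another input, the median difference was -0.0069 (interquartile range -0.17 to 0.19, 358 regions) for MOF and 0.0078 (-0.15 to 0.14, 501 regions) for MSL2. MOF was higher in 175 regions (48.9%, shifted regions 49.7%) and MSL2 in 257 (51.3%, shifted regions 50.1%).

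The comparison depended on how far the regions were shifted. With shifts of 100 to 500 kb, the median difference was 0.34 for MOF and 0.25 for MSL2 in *roX* mutants and 0.13 for MOF and 0.043 for MSL2 in wild type.

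MOF of *roX* mutants itself did not increase with the MSL1 value of the regions. The regions were ordered by MSL1 value and divided into 4 classes of 145 each. From the lowest to the highest class, the median log2 ratio of *roX* mutant MOF was 0.40, 0.40, 0.43 and 0.37 in the regions and 0.28, 0.29, 0.28 and 0.16 in their shifted regions. The median difference of *roX* mutant MOF was 0.16, 0.14, 0.17 and 0.24, and that of *roX* mutant MSL2 was 0.17, 0.16, 0.22 and 0.15. In wild type MOF it was 0.018, 0.021, 0.013 and -0.077, and in wild type MSL2 0.023, -0.027, 0.030 and -0.014. The first 3 classes, with MSL1 values from 0.80 to 0.98, were thus alike within their interquartile ranges in every library. In *roX* mutants, MSL2 can be subtracted from MOF, and their common input then cancels at the positions where both carry a value. This difference of the mean MOF minus the mean MSL2 of a region, computed after the other values had been seen, exceeded that of the shifted regions by 0.015, -0.0056, 0.0095 and 0.077 in the 4 classes. Over all regions it was higher in 285 of 532 (53.6%), where the shifted regions gave 50.3%.

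**Figure D2:**
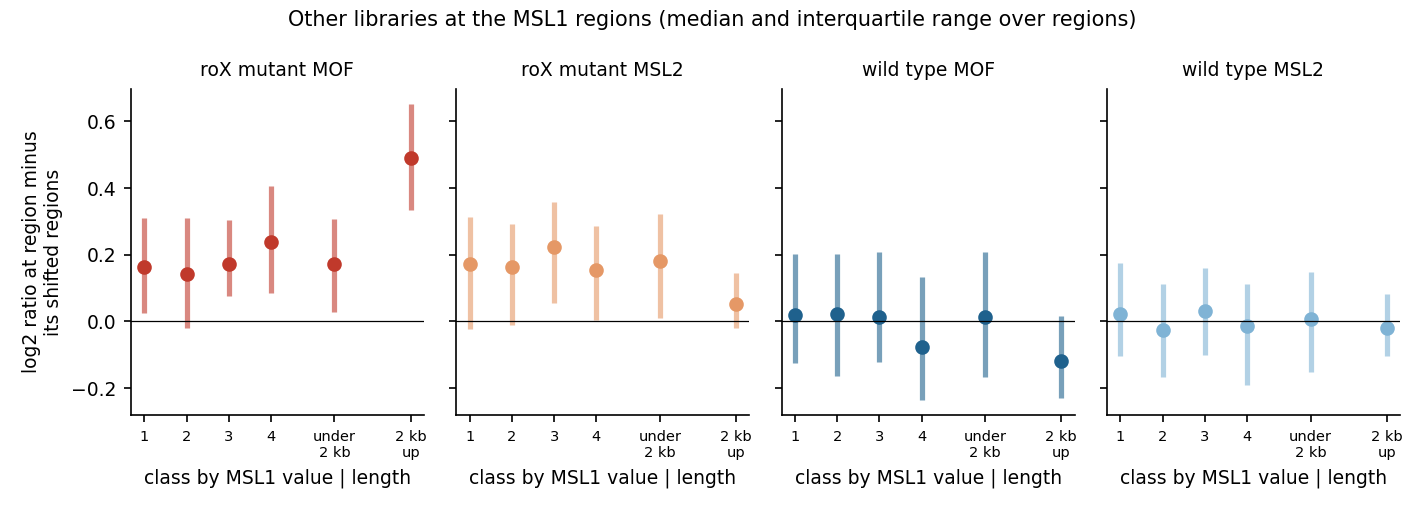
Log2 ratio in the region minus that in its shifted regions (vertical axis) for 4 classes of 145 regions by MSL1 value, from lowest (1) to highest (4), and for regions under 2 kb and of 2 kb or longer, with a panel for each library. Points are medians over regions and bars span the interquartile range. *roX* mutant MOF reaches 0.49 in regions of 2 kb or longer, where *roX* mutant MSL2 has 0.052 and wild type MOF -0.12.

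The highest of these classes held all 31 long regions. In the 31 long regions, the median difference of *roX* mutant MOF was 0.49 (lowest 0.045, highest 1.26), and MOF was higher than in the shifted regions in 31 of 31. The median MOF log2 ratio was 0.22 in these regions and -0.30 in their shifted regions, against 0.42 and 0.28 for the short regions, so that the larger difference went with lower shifted regions and not with a higher MOF level. *roX* mutant MSL2 had a median of -0.13 in the long regions and -0.21 in the shifted regions, a median difference of 0.052 (lowest -0.18, highest 0.43), and was higher in 23. The difference exceeded 0.2 in 29 long regions for MOF and in 5 for MSL2. The high values of the 2 libraries differ in size, with cutoffs of the highest 5 percent at 0.62 for MOF and 0.47 for MSL2. Counts over 0.2 are not given for the shifted regions, so that they are only a description. With shifts of 100 to 500 kb the median difference in the long regions was 0.31 for MOF (higher in 25 of 31) and -0.11 for MSL2, and in the short regions it was 0.34 for MOF, so that the larger MOF difference of the long regions and the direction for MSL2 depended on the distance. MOF minus MSL2 over the positions where both carry a value, at which the input cancels, had a median of 0.34 in the long regions and -0.089 in the shifted regions, a median difference of 0.44 (lowest 0.039, highest 1.15), and was higher in 31 of 31. With the distant shifts it was 0.32 (higher in 30 of 31).

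In wild type the long regions were not raised. Wild type MOF had a median of -0.17 in the long regions and -0.061 in the shifted regions, a median difference of -0.12, and was higher in 8 of 31. Wild type MSL2 had 0.15 and 0.14, a median difference of -0.020, and was higher in 15 of 31. The wild type MOF difference was below -0.2 in 11 long regions and above 0.2 in 1, and such counts are not given for the shifted regions. For MOF the median difference in the long regions was thus 0.49 in *roX* mutants, against -0.12 in wild type. This difference between genotypes rests on 1 library each and on different inputs, and it was not tested. In the long regions 88.3% of the positions carried a value for *roX* mutant MOF (shifted regions 66.9%), 78.3% for *roX* mutant MSL2 (72.2%), 66.8% for wild type MOF (64.4%) and 87.9% for wild type MSL2 (84.5%). The part of missing values in these differences was not tested.

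The short regions differed from this. In the 549 short regions, the median difference was 0.17 for *roX* mutant MOF (higher in 415 of 527) and 0.18 for *roX* mutant MSL2 (higher in 386 of 514). MOF minus MSL2 over the positions with both had a median of 0.11 in the short regions and 0.12 in their shifted regions, with a median difference of -0.0011, and it was higher in 241 of 484 regions, where the shifted regions of all members gave 50.5%. With the distant shifts it was 0.073 and higher in 304 of 485 regions, where the distant shifted regions of all members gave 50.1%. Against the near shifted regions, MOF and MSL2 of *roX* mutants were thus raised by like amounts in the short regions, and with the distant shifts MOF was raised more. With the near shifts both were raised in 312 of 501 (62.3%) and neither in 47. In wild type the corresponding counts were 88 and 92 of 312 regions, with median differences of 0.013 for MOF and 0.0083 for MSL2. With the distant shifts the wild type differences in the short regions were 0.18 for MOF (higher in 220 of 330) and 0.051 for MSL2. Those of *roX* mutants were then 0.34 for MOF and 0.27 for MSL2. Binding of MOF and MSL2 and an effect of their common input cannot be told apart in the short regions.

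**Figure D3:**
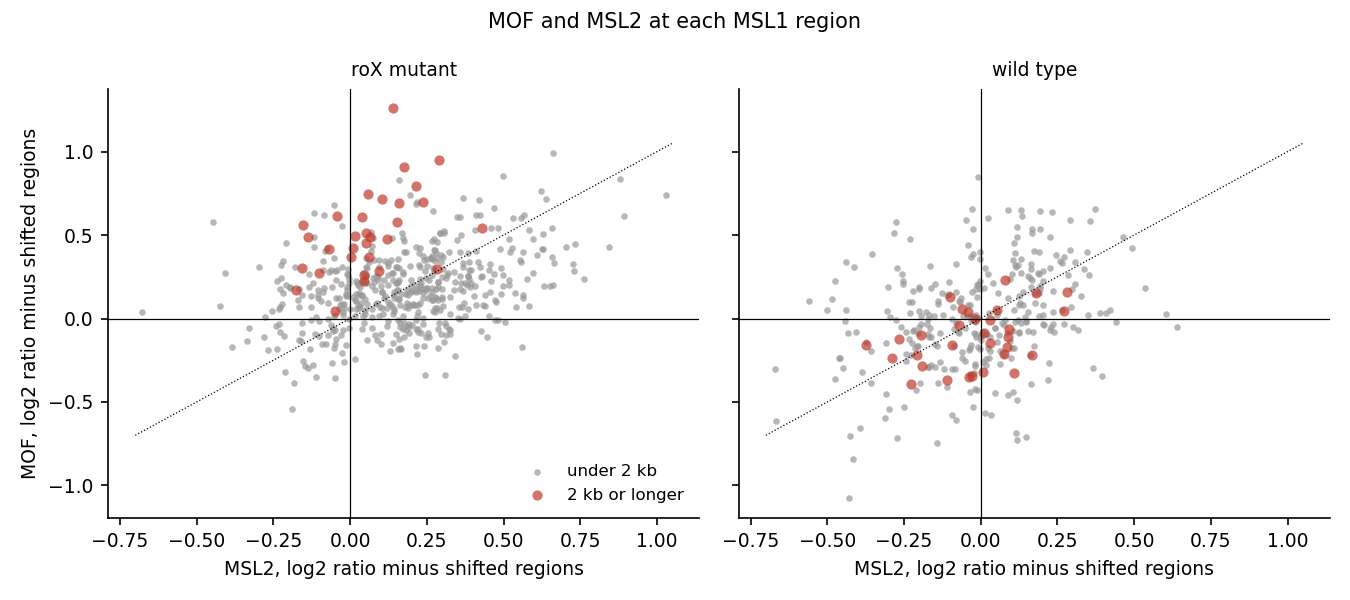
Difference from the shifted regions for MOF (vertical axis) against that for MSL2 (horizontal axis), both in log2 ratios, in *roX* mutants (left) and wild type (right). Each point is a region, red points are 2 kb or longer, and the dotted line marks equal differences. In *roX* mutants all 31 red points lie above the dotted line and above 0 for MOF, and in wild type 8 of 31 lie above 0 for MOF.

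The profiles around the MSL1 peak centres also differed between the long and the short regions. In the 500 bp right of the centre, the median log2 ratio over the long regions was 1.91 for MSL1, 0.39 for MOF and 0.017 for MSL2 in *roX* mutants and -0.21 for MOF and 0.13 for MSL2 in wild type. In the outermost bin on the same side, 10 kb from the centre, it was 0.0032 for MSL1, -0.32 for MOF and -0.23 for MSL2 in *roX* mutants and -0.21 for MOF and 0.093 for MSL2 in wild type. MOF and MSL2 of *roX* mutants thus both had their highest level in the bin right of the MSL1 peak centre of the long regions. The wild type levels at the centre and in the outermost bin were close to each other. Around the short regions with a value under 1.0, the profiles at the centre stood on a raised level, with 0.75 for MSL1, 0.38 for MOF and 0.27 for MSL2 in *roX* mutants, against 0.25, 0.29 and 0.17 in that outermost bin.

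**Figure D4:**
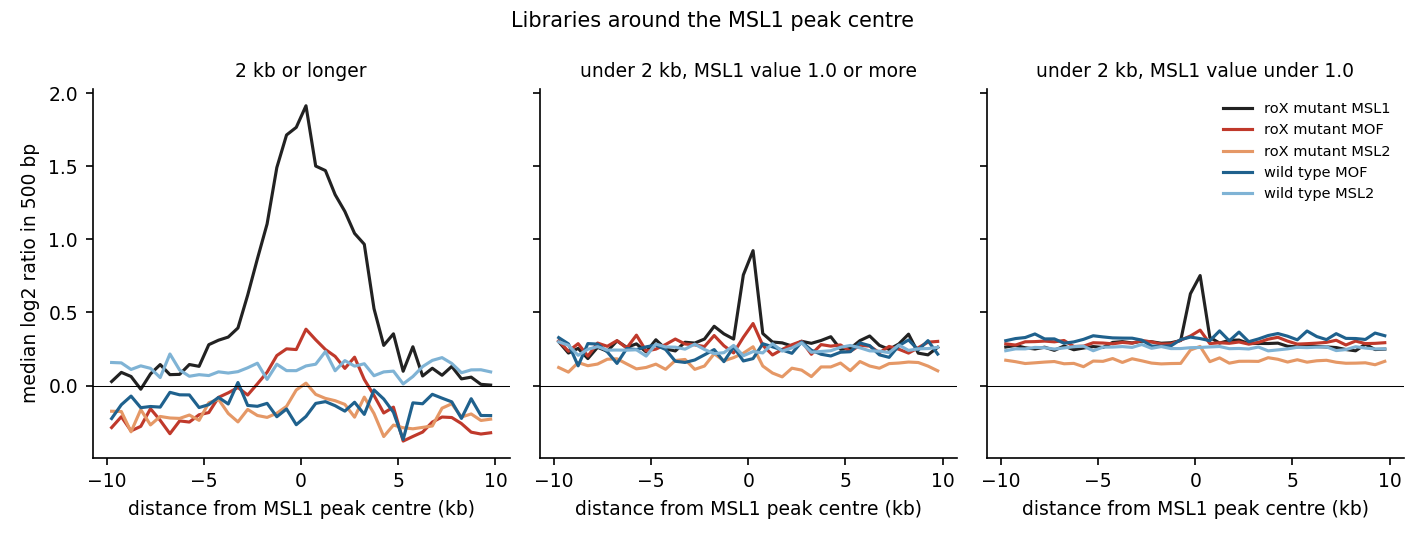
Median log2 ratio in bins of 500 bp (vertical axis) against the distance from the MSL1 peak centre (kb) for regions of 2 kb or longer and for regions under 2 kb with a value of 1.0 or more and under 1.0, with a line for each library. In the long regions MSL1 reaches 1.91, *roX* mutant MOF 0.39 and *roX* mutant MSL2 0.017 at the centre, each its highest level. In the short regions all libraries start from a level above 0 and only those of *roX* mutants have a peak.

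Among the long regions, MOF of *roX* mutants varied with MSL1. Spearman's rho between the MSL1 region value and the difference was 0.65 for *roX* mutant MOF, 0.22 for *roX* mutant MSL2, -0.073 for wild type MOF and -0.071 for wild type MSL2, and it was 0.69 for MOF minus MSL2 (31 regions). In the short regions these values were 0.065, 0.040, -0.10 and -0.073, and -0.0062 for MOF minus MSL2. Higher regions were also longer, with a rho between value and length of 0.70 in the long and 0.40 in the short regions. The smoothed profile of MOF followed that of MSL1 also along the long regions, with a median rho within a region of 0.60 and a positive rho in 28 of 31. For *roX* mutant MSL2 the median was 0.21 with 24 positive, for wild type MOF -0.15 with 13 and for wild type MSL2 0.021 with 17. The highest smoothed value of *roX* mutant MOF lay at a median distance of 960 bp from the MSL1 peak centre, against 1100 bp for *roX* mutant MSL2, 1570 bp for wild type MOF and 1470 bp for wild type MSL2. In *roX* mutants this highest value lay within 500 bp of the centre in 8 of the 31 regions for MOF and in 11 for MSL2. In wild type it did so in 5 for MOF and in 4 for MSL2. The correlations are across regions or positions that share a library and an input, and are given as a description.

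When regions of the other libraries were called by the same rule, each library had its own cutoff, at 0.62 for *roX* mutant MOF, 0.47 for *roX* mutant MSL2, 1.02 for wild type MOF and 0.60 for wild type MSL2. Of the 580 MSL1 regions, 147 (25.3%, exact 95% interval 21.9 to 29.1) overlapped a *roX* mutant MOF region by at least 1 bp, and 13.1% of the 4185 shifted regions did. For *roX* mutant MSL2 it was 146 (25.2%, shifted regions 12.4%), for wild type MOF 9 (1.55%, shifted regions 1.31%) and for wild type MSL2 32 (5.52%, shifted regions 6.71%). The interval treats regions as independent. A wild type MOF region could not be found at 219 of the 580, because no smoothed window of that library was present. No region overlapped called regions of all 4 libraries, 7 overlapped those of 3, and 331 overlapped none. These counts over several libraries are not given for the shifted regions, so that they are only a description.

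The long and short regions also differed in these overlaps. Of the 31 long regions, 12 (38.7%, exact 95% interval 21.9 to 57.8) overlapped a *roX* mutant MOF region, against 4.23% of their 260 shifted regions, and 3 (9.68%) a *roX* mutant MSL2 region, against 7.69%. With wild type MOF it was 0 of 31 (exact 95% upper limit 11.2%), against 2.69% of the shifted regions, and with wild type MSL2 7 (22.6%), against 20.8%. In the short regions the shares for MOF and MSL2 of *roX* mutants were close to each other, with 135 (24.6%) and 143 (26.0%). Their shifted regions had 13.7% for MOF and 12.7% for MSL2. Of all regions, 59 overlapped both a MOF and an MSL2 region of *roX* mutants, among them 3 long ones. MOF alone was overlapped by 88, of which 9 were long, and MSL2 alone by 87, of which none was long. Such joint counts are not given for the shifted regions, so that they too are only a description. From the other side, the MSL1 regions took up a small part of the other libraries, and 155 of 3707 *roX* mutant MOF regions (4.18%) and 149 of 6074 *roX* mutant MSL2 regions (2.45%) on these arms overlapped an MSL1 region. With the highest 1.5 percent of the other library, 6.90% of the MSL1 regions overlapped a *roX* mutant MOF region. No share of shifted regions is given beside this value or beside the shares from the other side.

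**Figure D5:**
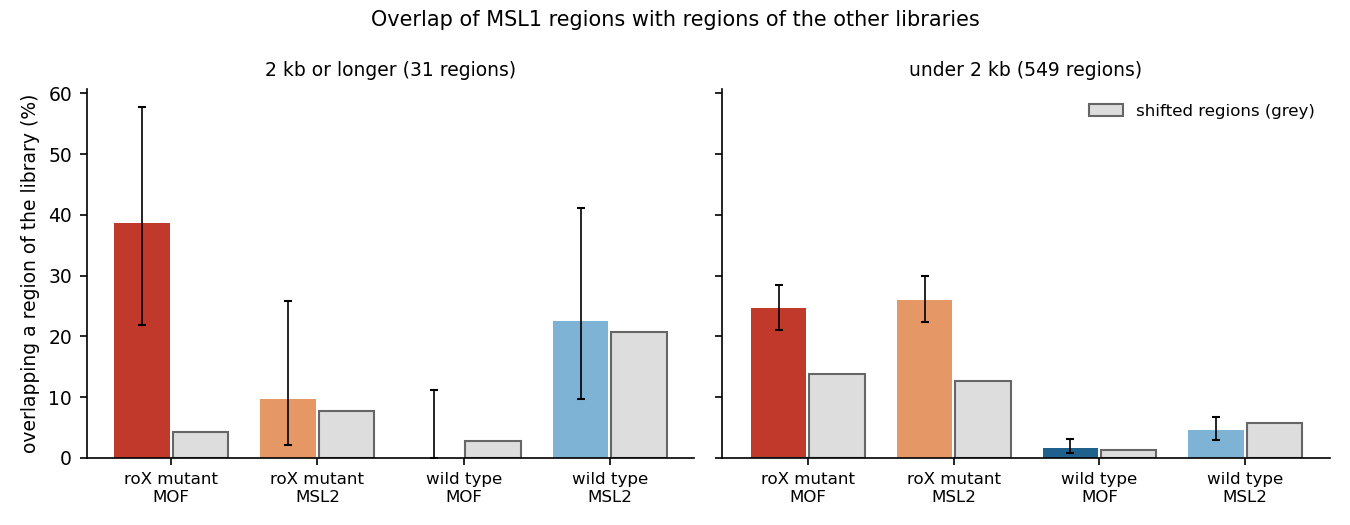
Share of MSL1 regions (%) that overlap a region of each other library by at least 1 bp, for the 31 regions of 2 kb or longer (left) and the 549 shorter ones (right). Coloured bars are the MSL1 regions with exact 95% binomial intervals that treat them as independent, and grey bars are their shifted regions. *roX* mutant MOF has 38.7% against 4.23% in the long regions, and wild type MOF has no overlap there.

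The other parts of the genome with MSL1 regions at the same cutoff were set beside these. In MSL1 regions with a value of 1.5 or more, the median mean log2 ratio of *roX* mutant MOF was 0.23 in the 25 regions on the arms, 0.48 on X (129 regions), 0.38 on chromosome 4 (13 regions) and 0.81 at the centromere ends (22 regions). Wild type MOF had -0.24 in these regions on the arms, against 2.05 on X, -0.67 on chromosome 4 and -0.033 at the centromere ends. Wild type MSL2 had 0.13 on the arms, 0.95 on X, 0.016 on chromosome 4 and 0.13 at the centromere ends. *roX* mutant MSL2 had -0.13 on the arms, 0.28 on X, -0.18 on chromosome 4 and 0.17 at the centromere ends, so that a positive MOF and a negative MSL2 median were found on the arms and on chromosome 4. The shifted regions of the 25 regions on the arms had a lower median of -0.20 for *roX* mutant MSL2 and of -0.30 for *roX* mutant MOF. Shifted regions are not given for the other parts, so that the signs are only a description. Regions of 2 kb or longer were 5.34% of those on the arms, against 23.2% on X, 27.3% on chromosome 4 and 6.06% at the centromere ends. X and the arms differ in the number of positions with a value, and the levels were not adjusted for this.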

How the data were processed

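ChIP-seq was performed by the authors on salivary glands of 3rd instar larvae and sequenced on the AB SOLiD platform. Reads with a unique match were placed by the authors on the *D. melanogaster* genome, release 5, with Bioscope, and they deposited log2 ratios of ChIP over input at positions spaced 10 bp apart. The scaling and the rule for missing values are given by reference in the methods. Missing values make a window less precise and could favour high values. Ratios of 5 libraries were used, and 3 *D. simulans* libraries were not used here.

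Regions were called as described with the report. Only shifted regions with at least 10 values in the library and in *roX* mutant MSL1, on the same arm and outside the members, were kept (4185 for 577 of the 580 regions, at most 10 for each). With 1 library per antibody and genotype no test was made. Intervals are order-statistic or exact binomial intervals over regions, and they treat the regions as independent. The members and lists were chosen with earlier results of these data known. The named regions are the 3 with the highest value on 2L, 3L and 3R, the longest, any that overlap called regions of all 4 other libraries, and the 2 on each side of the cutoff. Regions on 2R were given by counts and values. The 7330 and 8030 bp regions and the 3 neighbouring regions on 3R were chosen after their values were seen. The annotation table at hand is of Release 6, so no genes or sequences were assigned. The procedure was tested on simulated data. Alternatives covered the cutoff, smoothing, values per window, gaps, lengths, scaffolds, centromere ends, shifts, overlap rules and, added later, single arms, the length class and positions with both MOF and MSL2. Python 3.11.15, numpy 2.4.6, pandas 2.3.3, scipy 1.17.1 and matplotlib 3.10.9 were used.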

Additional observations from a re-analysis of the deposited data

Results flagged for a closer look

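At the MSL1 regions, MOF differed from its shifted regions by 0.18 in *roX* mutants and by -0.0069 in wild type. Both are median differences in log2 ratios. The interval of the wild type value over regions, -0.036 to 0.021, held 0, and with shifts of 100 to 500 kb it was 0.13, so that an opposite sign is not shown. In the 31 long regions the median difference of MOF was 0.49 in *roX* mutants and -0.12 in wild type. MSL2 in the long regions differed by 0.052 in *roX* mutants and by -0.020 in wild type. This wild type value had an interval of the same kind, -0.093 to 0.075, that also held 0. With the distant shifts both MSL2 values were negative (-0.11 in *roX* mutants and -0.057 in wild type). None of these differences between the genotypes was tested, because each rests on 1 library per genotype, and the genotypes have different inputs.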

How the results depend on the processing

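No paired analysis was possible because each antibody and genotype has 1 library. Of 224 values computed under alternatives, 166 stayed within their interval or within 1.5 times the count, 57 moved and 1 changed its direction. The cause of these changes was not tested.

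The highest 3 percent gave 75 regions and the highest 1.5 percent gave 29. There were 175 with 1000 bp smoothing, 26 with 40 values per window, 126 with a length of 500 bp or more, 948 with a cutoff set without scaffolds and 351 without 2L. With the highest 3 percent, the median difference was 0.41 for *roX* mutant MOF, 0.11 for *roX* mutant MSL2, -0.10 for wild type MOF, -0.032 for wild type MSL2 and 0.33 for MOF minus MSL2, and 17.3% of the regions overlapped a *roX* mutant MOF region and 0% a wild type MOF region. With the highest 1.5 percent, it was 0.65 for *roX* mutant MOF, 0.14 for *roX* mutant MSL2, -0.080 for wild type MOF and 0.53 for MOF minus MSL2, with overlaps of 20.7% and 0%, and 16 long regions had 0.75 for MOF and 0.16 for MSL2. With 1000 bp smoothing, *roX* mutant MSL2 had 0.11 and wild type MOF -0.068, with an overlap of 0% for wild type MOF. With 40 values per window, *roX* mutant MOF had 0.74, wild type MOF -0.071, wild type MSL2 0.054 and MOF minus MSL2 0.55, with overlaps of 30.8% and 0%, and 15 long regions had 0.79 for MOF and 0.18 for MSL2. With regions of 500 bp or more, *roX* mutant MOF had 0.21, *roX* mutant MSL2 0.11, wild type MOF -0.086 and MOF minus MSL2 0.12, with overlaps of 18.3% and 0%.

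With shifts of 100 to 500 kb, *roX* mutant MOF had 0.34, *roX* mutant MSL2 0.25, wild type MOF 0.13, wild type MSL2 0.043 and MOF minus MSL2 0.091, and in the long regions MOF had 0.31 and MSL2 -0.11, the only change of direction of a value whose interval did not hold 0. The overlap with *roX* mutant MOF was 33.4% with 1 Mb left out at the centromere ends, 18.4% when at least 50% of the length had to be covered, 31.9% with peak centres within 1 kb, 6.90% with the highest 1.5 percent of the other library and 21.7% without 2L. For wild type MOF it was 0.517% with 50% of the length covered, 3.10% with peak centres within 1 kb and 0% with the highest 1.5 percent. Overlap shares of the shifted regions are not given under the alternatives. Without 2L, *roX* mutant MOF had 0.20, and without 3R 15 long regions remained. MOF of *roX* mutants was above the shifted regions under every alternative, from 0.17 to 0.74 over all regions and from 0.31 to 0.79 in the long ones. Read depth is unknown, so that weak regions cannot be separated from counting error.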
